A study of Mus musculus with 16 samples.

Results

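The 10 endothelial receptor and junction genes described here were followed through the making of blood from mouse embryonic stem (ES) cells: the VEGF receptors Kdr (Flk1) and Flt1, the Tie receptors Tek (Tie2) and Tie1, the junction proteins Cdh5, Pecam1 and Esam, the TGF-beta co-receptor Eng, and the sialomucins Emcn and Cd34. They were taken by name, and each was read from the brightest of its probes, so all 10 are among the 37149 genes tested, of which 20122 have a symbol. The samples were 16 one-color Agilent arrays, 2 for each of 4 populations in Sp1+/+ wild-type cells (E14 in the titles) and in Sp1-/- knock-out cells, all labelled C57BL/6. The Sp1-/- cells are 1 ES cell line that makes a shortened Sp1 protein without its DNA-binding domain. Flk1+ cells were taken from embryoid bodies on magnetic columns with an antibody to Flk1, the protein of Kdr. They were then grown in blast culture and sorted on the second day into hemogenic endothelium 1 (HE1: KIT+, Tie2+, CD41-), hemogenic endothelium 2 (HE2: KIT+, Tie2+, CD41+) and progenitors (KIT+, Tie2-, CD41+). Kdr and Tek thus encode gate proteins, and their differences between gated populations are given as a description.

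Blood arises in the embryo from hemogenic endothelium, a specialized endothelium whose cells let go of their neighbours, lose endothelial character and become hematopoietic. Before that step the cells hold together through adherens and tight junctions. Cdh5 (VE-cadherin) is the main adhesion protein of endothelial adherens junctions, Esam sits in endothelial tight junctions, and Pecam1 (CD31) lies at cell borders and is also found on blood cells. VEGF acts through Kdr, its main signalling receptor, while Flt1 binds VEGF tightly and largely restrains it. Angiopoietins signal through Tek, with which Tie1 pairs. Eng presents TGF-beta family ligands to their receptors. Emcn and Cd34 are heavily glycosylated surface proteins, and Cd34 is shared by endothelium and early blood cells.

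Sp1 is a zinc finger factor that binds GC-rich DNA, so the promoters of 4 of these genes are shown. Kdr and Flt1 hold the GC box GGGCGG. Eng and Cd34 do not, and their levels differed between the genotypes. The Sp1-/- arrays also read above the Sp1+/+ arrays for Kdr on its brightest probe and, in Flk1+ cells, for Flt1. Tek, Tie1 and Emcn, also without the GC box, are not shown. A link between the GC box and the genotype differences was not tested. Of the 10 genes, 7 had an entry of 300 bases (250 before and 50 after the start site) in the RefSeq table for GRCm38.p6. Cdh5, Pecam1 and Esam had none, so their promoters were not searched. Capitals mark the GC box and the ETS factor core AGGAAG, each on either strand. The windows are chr5:75978406-75978705 on the minus strand for Kdr, chr5:147725962-147726261 on the minus strand for Flt1, chr2:32646345-32646644 on the plus strand for Eng, and chr1:194938571-194938870 on the plus strand for Cd34.
Kdr: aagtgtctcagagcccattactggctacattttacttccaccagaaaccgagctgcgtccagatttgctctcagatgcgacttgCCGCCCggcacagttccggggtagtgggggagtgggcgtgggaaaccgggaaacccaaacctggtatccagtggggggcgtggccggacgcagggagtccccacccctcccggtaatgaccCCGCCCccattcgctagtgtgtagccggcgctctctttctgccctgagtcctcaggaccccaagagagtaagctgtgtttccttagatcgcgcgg
Flt1: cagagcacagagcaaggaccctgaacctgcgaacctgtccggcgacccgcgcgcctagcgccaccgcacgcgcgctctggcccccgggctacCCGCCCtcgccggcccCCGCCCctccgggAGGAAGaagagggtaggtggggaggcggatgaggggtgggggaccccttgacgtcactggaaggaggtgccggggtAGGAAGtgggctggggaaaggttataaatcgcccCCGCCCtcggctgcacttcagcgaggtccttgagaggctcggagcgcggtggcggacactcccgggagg
Eng: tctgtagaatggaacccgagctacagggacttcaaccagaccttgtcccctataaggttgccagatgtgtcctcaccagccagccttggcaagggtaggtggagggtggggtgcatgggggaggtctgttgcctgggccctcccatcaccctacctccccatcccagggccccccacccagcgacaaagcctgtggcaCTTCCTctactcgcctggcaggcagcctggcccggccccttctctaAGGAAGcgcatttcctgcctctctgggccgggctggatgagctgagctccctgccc
Cd34: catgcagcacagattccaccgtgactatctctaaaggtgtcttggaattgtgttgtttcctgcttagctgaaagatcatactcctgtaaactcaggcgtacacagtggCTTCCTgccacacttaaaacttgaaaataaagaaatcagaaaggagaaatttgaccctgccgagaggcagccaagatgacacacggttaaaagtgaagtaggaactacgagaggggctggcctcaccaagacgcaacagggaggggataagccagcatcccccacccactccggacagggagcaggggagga

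The GC box was found in 2 of the 7 windows, against 35.7% of all 32851 promoter windows, counting both strands. Kdr holds it 2 times, with first bases at -166 and -45 from the start site, and Flt1 3 times, at -158, -142 and -19. The ETS core was found in 5 of the 7 windows (Flt1, Tie1, Eng, Emcn and Cd34), against 35.4% of all windows. The GATA motif AGATAA was found in Tek alone, against 11.2% of all windows. A match gives the letters in the window and is not a binding site.

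Spots well above background made up 67% to 77.1% per array, and the medians of the deposited columns lay between 6.93 and 6.94 on the log2 scale. Sp1 itself was lower in every Sp1-/- array (9.03 to 10.29) than in any Sp1+/+ array (12.14 to 12.56), and the log2 difference ranged from -2.28 in Flk1+ cells to -3.28 in HE1. Each genotype had a slide of its own, so genotype and slide cannot be told apart, while populations of 1 genotype were compared within a slide. The RNA of the other gate genes followed the sorts only in part. Itga2b, which encodes CD41, averaged 7.84 in Flk1+ cells and rose to 10.61 in HE1 and 12.08 in HE2 and was 11.67 in progenitors in Sp1+/+ cells. In Sp1-/- cells the 4 means were 7.76, 11.05, 12.40 and 11.81. In both genotypes the larger step of Itga2b was thus into HE1, which was sorted as CD41-. Kit averaged 10.47, 11.95, 13.01 and 13.05 in the same order in Sp1+/+ cells and 9.88, 11.51, 12.89 and 11.82 in Sp1-/- cells. In sorted bulk samples fewer cells of a type and less RNA per cell cannot be told apart.

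All levels below are log2 intensities, where a step of 1 is a 2-fold difference. They compare 1 probe across arrays and say nothing of one gene against another. Each group has 2 arrays, described in the series text as independent biological replicates, while a supplementary legend speaks of technical replicates. The p-values therefore cover the spread between these arrays, whatever its source. The 10 genes varied together between the arrays of a group. In Sp1+/+ progenitors all 10 were higher on replicate 1, by a median of 0.79, against a median absolute difference of 0.10 over all genes. Replicate 2 was the higher for 9 of the 10 in Sp1+/+ Flk1+ cells (median absolute difference 0.80) and for 9 of the 10 in Sp1+/+ HE2 (0.82). The Sp1-/- pairs lay closer, with median absolute differences between 0.17 and 0.27.

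**Figure D1:**
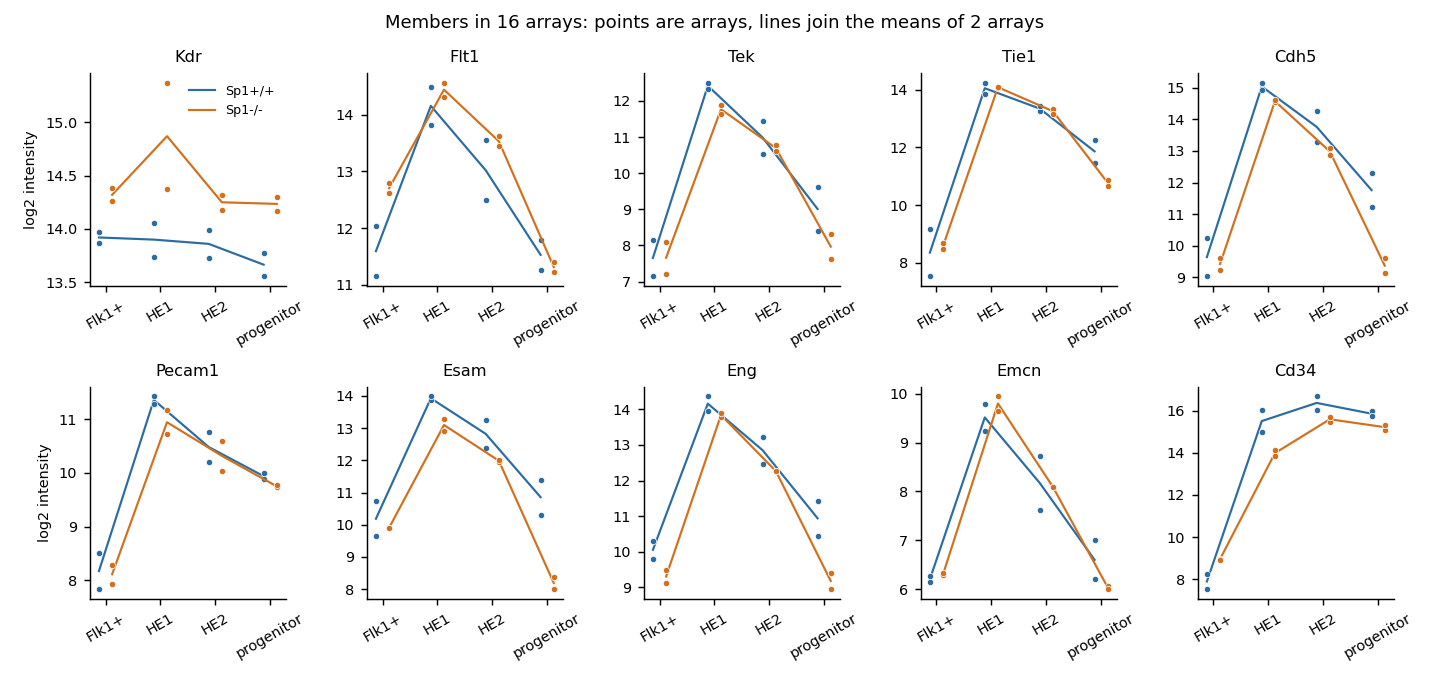
Log2 intensity (y axis) of each of the 10 genes in the 4 populations (x axis), with Sp1+/+ in blue and Sp1-/- in orange. Each point is 1 array and the lines join the means of 2 arrays. In Sp1+/+ cells 8 of the 10 genes were highest in HE1 and in Sp1-/- cells 9 of the 10. Kdr stayed between 13.56 and 15.37, and Cd34 was highest in HE2.

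The members fell into 3 patterns. Flt1, Tek, Tie1, Cdh5, Pecam1, Esam, Eng and Emcn had their highest mean in HE1 in both genotypes and were lower again in HE2 and progenitors. Cd34 was low in Flk1+ cells but high in the other populations and highest in HE2. Kdr, read from its brightest probe, was high throughout. The lowest mean lay in Flk1+ cells for 8 of the 10 genes in Sp1+/+ cells but for 4 in Sp1-/- cells, where 6 were lowest in progenitors. The genes that changed place by their means were Cdh5, Esam, Eng and Emcn, but for Cdh5 and Eng the Sp1-/- progenitor and Flk1+ arrays overlapped, for Esam those of Sp1+/+ cells did, and for Emcn the lowest group was not well above background in either genotype. Emcn was well above background on 11 of 16 arrays, and the other 9 genes on all 16.

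Among the VEGF receptors, Kdr in Sp1+/+ cells read 13.97 and 13.87 for Flk1+, 13.74 and 14.06 for HE1, 13.99 and 13.73 for HE2 and 13.77 and 13.56 for progenitors. Kdr in Sp1-/- cells read 14.26 and 14.38, then 14.37 and 15.37, then 14.18 and 14.32, then 14.17 and 14.30. All 8 Sp1-/- arrays were thus above all 8 Sp1+/+ arrays on this probe, and within a genotype successive populations overlapped, except that both Sp1-/- HE1 arrays lay above both of HE2. Flt1 in Sp1+/+ cells read 11.16 and 12.03 for Flk1+, 13.82 and 14.49 for HE1, 12.49 and 13.55 for HE2 and 11.79 and 11.27 for progenitors. Flt1 in Sp1-/- cells read 12.62 and 12.79, then 14.32 and 14.56, then 13.44 and 13.62, then 11.23 and 11.40. The genotypes overlapped in every population except Flk1+ cells, where both Sp1-/- arrays were the higher. The progenitor arrays overlapped those of Sp1+/+ Flk1+ cells.

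Of the Tie receptors, Tek in Sp1+/+ cells read 7.16 and 8.15 for Flk1+, 12.34 and 12.50 for HE1, 10.52 and 11.45 for HE2 and 9.62 and 8.40 for progenitors. Tek in Sp1-/- cells read 7.21 and 8.11, then 11.89 and 11.65, then 10.61 and 10.78, then 7.62 and 8.32. Its RNA was thus lowest before the Tie2 sort and, in Sp1-/- cells, in the Tie2- progenitors, whose arrays overlapped those of Flk1+ cells. Tie1 in Sp1+/+ cells read 7.55 and 9.16 for Flk1+, 14.23 and 13.86 for HE1, 13.26 and 13.42 for HE2 and 12.25 and 11.47 for progenitors. Tie1 in Sp1-/- cells read 8.48 and 8.69, then 14.07 and 14.09, then 13.33 and 13.17, then 10.67 and 10.87. Tie1 overlapped between the genotypes in the first 3 populations and not in progenitors, and in both genotypes its progenitor arrays stayed above its Flk1+ arrays.

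For the junction proteins, Cdh5 in Sp1+/+ cells read 9.04 and 10.23 for Flk1+, 15.16 and 14.93 for HE1, 13.27 and 14.26 for HE2 and 12.29 and 11.23 for progenitors. Cdh5 in Sp1-/- cells read 9.22 and 9.61, then 14.54 and 14.62, then 13.09 and 12.88, then 9.12 and 9.61. Ordered by mean, the groups ran from Sp1+/+ HE1 through Sp1-/- HE1, Sp1+/+ HE2, Sp1-/- HE2 and Sp1+/+ progenitors, none overlapping its neighbour, down to both Flk1+ groups and the Sp1-/- progenitors, which overlapped. Esam in Sp1+/+ cells read 9.64 and 10.73 for Flk1+, 13.86 and 13.99 for HE1, 12.38 and 13.26 for HE2 and 11.40 and 10.31 for progenitors. Esam in Sp1-/- cells read 9.90 and 9.91, then 12.91 and 13.28, then 11.96 and 12.01, then 8.00 and 8.38. The Sp1-/- progenitors were the lowest group for Esam and stood clear of every other group. Pecam1 in Sp1+/+ cells averaged 8.17 for Flk1+, 11.36 for HE1, 10.48 for HE2 and 9.94 for progenitors. Pecam1 in Sp1-/- cells averaged 8.11, 10.95, 10.32 and 9.75. It had the smallest spread between progenitors and HE1 of the 8 genes that peaked there.

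Eng in Sp1+/+ cells read 9.80 and 10.31 for Flk1+, 13.95 and 14.37 for HE1, 12.47 and 13.23 for HE2 and 11.44 and 10.44 for progenitors. Eng in Sp1-/- cells read 9.13 and 9.48, then 13.78 and 13.90, then 12.27 and 12.26, then 8.95 and 9.41. Both Sp1-/- arrays lay below both Sp1+/+ arrays in all 4 populations, and Sp1-/- progenitors overlapped Sp1-/- Flk1+ cells at the bottom of the order. Of the sialomucins, Emcn averaged 6.21 in Sp1+/+ and 6.31 in Sp1-/- Flk1+ cells, 9.52 and 9.80 for HE1, 8.18 and 8.10 for HE2 and 6.60 and 6.04 for progenitors. It was not well above background on either array of Sp1+/+ Flk1+ cells and Sp1-/- progenitors, nor on 1 of the 2 of Sp1+/+ progenitors. Cd34 in Sp1+/+ cells read 7.53 and 8.26 for Flk1+, 14.99 and 16.01 for HE1, 16.04 and 16.68 for HE2 and 15.96 and 15.74 for progenitors. Cd34 in Sp1-/- cells read 8.98 and 8.93, then 13.83 and 14.13, then 15.47 and 15.70, then 15.09 and 15.33. The genotypes did not overlap for Cd34 in any population, with Sp1-/- the higher in Flk1+ cells and the lower in the other 3.

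Kdr and Cd34 each have a second probe, and those of Kdr disagreed. The second Kdr probe averaged 14.64 in Sp1+/+ and 14.83 in Sp1-/- Flk1+ cells, 15.12 and 14.92 for HE1, 13.87 and 13.61 for HE2 and 12.69 and 11.56 for progenitors, so that it was lowest in progenitors and not flat. From HE2 to progenitors it was lower by a log2 change of -1.18 in Sp1+/+ and -2.05 in Sp1-/- cells (limma over all probes, unadjusted p = 0.000446 and 3.28e-06), where the brightest probe gave -0.20 and -0.02. In progenitors its Sp1-/- effect was -1.13 (unadjusted p = 0.000618), opposite in sign to the 0.57 of the brightest probe. The files name the same RefSeq transcript for both. The probes of Cd34 ran alike outside Flk1+ cells. In Flk1+ cells the second averaged 6.28 in Sp1+/+ and 6.38 in Sp1-/- cells and gave a Sp1-/- effect of 0.11 against 1.06. Every other member has 1 probe.

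**Figure D2:**
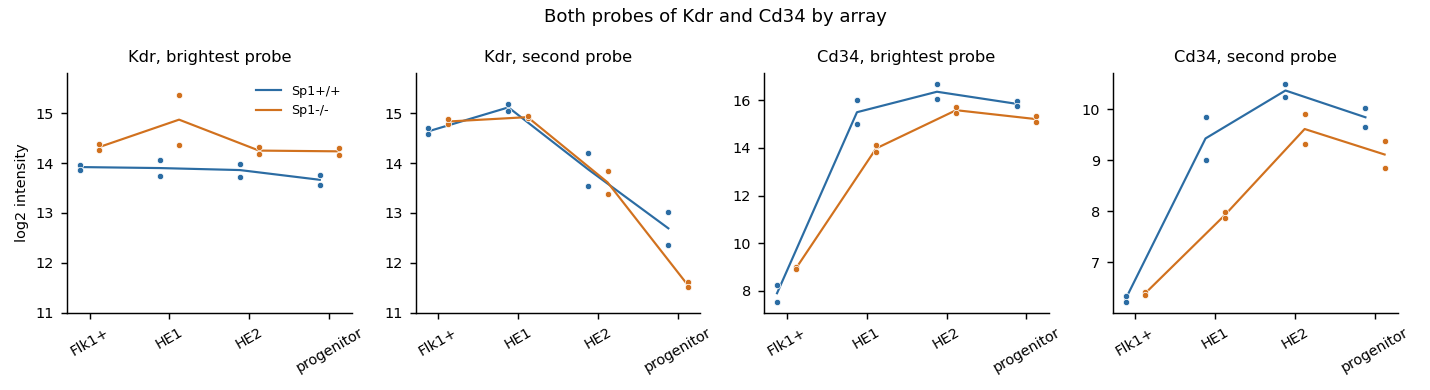
Log2 intensity (y axis) of both probes of Kdr and both probes of Cd34 in the 4 populations (x axis), with a point for each array, Sp1+/+ in blue, Sp1-/- in orange and lines through the means. The second Kdr probe fell to 12.69 and 11.56 in progenitors while the brightest stayed at 13.67 and 14.24. The Cd34 probes share their order of populations.

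Changes between successive populations were tested with limma across all genes and called at an unadjusted p of 0.01 and a 2-fold change, with adjusted p (Benjamini-Hochberg over 37149 genes) beside it. From Flk1+ cells to HE1, 9 of the 10 genes rose in Sp1+/+ cells, where 4.66% of all genes were called higher, and 9 rose in Sp1-/- cells, where 4.62% were. The exception was Kdr, with a log2 change of -0.02 (SE 0.25) and 0.55 (SE 0.25). Cd34 rose by 7.61 (SE 0.33, 195-fold, adjusted p = 7.35e-08) in Sp1+/+ cells, the largest change there, and by 5.03 (SE 0.33, 32.6-fold, adjusted p = 1.25e-06) in Sp1-/- cells, where Tie1 and Cdh5 rose further. Tie1 rose 51.6-fold and 45.1-fold, Cdh5 42.5-fold and 35.9-fold, and Tek 27.2-fold and 17.3-fold. Eng rose 17.2-fold and 23.2-fold, Esam 13.4-fold and 9.13-fold, Pecam1 9.11-fold and 7.12-fold, and Flt1 5.90-fold and 3.33-fold. Emcn, not above background in Sp1+/+ Flk1+ cells, rose at least 9.92-fold there and 11.3-fold in Sp1-/- cells. The median log2 change of the 10 genes was 3.92 and 3.80, against -0.01 over all genes in both. Some markers of other cells rose over the same step and others fell. In Sp1+/+ cells the muscle genes Myl7 and Myh6 fell from means of 9.17 and 8.43 to 6.51 and 7.18. The mesenchyme gene Pdgfra fell from 11.27 to 7.32. Median log2 changes were 1.32 for 7 muscle, -0.29 for 6 mesenchyme, -0.05 for 10 blood and -0.80 for 4 epithelium genes. Of the muscle genes 3 rose and of the mesenchyme genes 2, among them Acta2 (log2 change 8.43), Tagln (4.87), Tnnt2 (3.58) and Col1a2 (2.29). In Sp1-/- cells these 4 rose by 7.76, 4.90, 4.54 and 3.63. The mesenchyme gene Postn, not well above background in Flk1+ cells, averaged 9.72 in Sp1+/+ and 11.15 in Sp1-/- HE1. The part of these markers in the result was not tested.

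**Figure D3:**
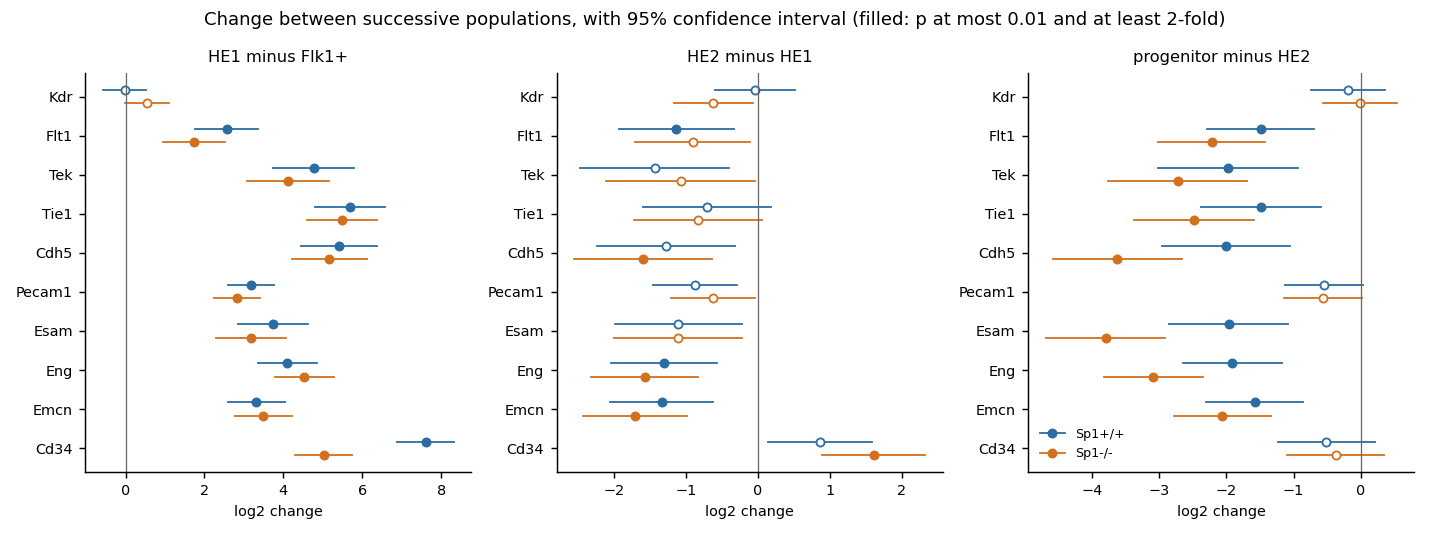
Log2 change (x axis) of each gene (y axis) between successive populations, with its 95% confidence interval, Sp1+/+ in blue and Sp1-/- in orange. Filled points passed a p of 0.01 and a 2-fold change. The 3 panels have their own x axes. In HE1 over Flk1+ cells 9 of 10 points are filled in each genotype, and in progenitors over HE2 the points of Esam are at -1.97 and -3.80.

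From HE1 to HE2, as CD41 appears, fewer genes passed. In Sp1+/+ cells 3 of the 10 fell, against 2.23% of all genes called lower: Flt1, Eng and Emcn (log2 change -1.14, -1.31 and -1.34, adjusted p = 0.0742, 0.0291 and 0.0232). In Sp1-/- cells Cdh5, Eng and Emcn fell (log2 change -1.60, -1.58 and -1.71), against 3.53% called lower, and Cd34 rose by 1.61 (SE 0.33, adjusted p = 0.00546), against 2.08% called higher. Cd34 in Sp1+/+ cells, at 0.86 (SE 0.33), did not pass. The other genes had negative values that missed a limma threshold on the brightest probe. Examples were Tek at -1.44 (SE 0.47, unadjusted p = 0.0111) in Sp1+/+ cells and Esam at -1.11 (SE 0.40) in both. The second Kdr probe did fall, by -1.25 in Sp1+/+ and -1.31 in Sp1-/- cells (limma over all probes, unadjusted p = 0.000286 and 0.000193). The brightest Kdr probe gave -0.04 and -0.62. The Sp1+/+ count rests on single arrays. Without HE2 replicate 1 none passed, without HE2 replicate 2 there were 7, and without HE1 replicate 2 only Cd34 passed.

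From HE2 to progenitors 7 of the 10 genes fell in each genotype: Flt1, the gate gene Tek, Tie1, Cdh5, Esam, Eng and Emcn. Over all genes 0.729% were called lower in Sp1+/+ cells and 2.66% in Sp1-/- cells. Cdh5 fell 4.01-fold in Sp1+/+ cells (log2 change -2.01, SE 0.43, adjusted p = 0.0335) and 12.3-fold in Sp1-/- cells (-3.62, SE 0.43, adjusted p = 0.000284). Esam fell 3.90-fold and 13.9-fold, and Eng 3.76-fold and 8.49-fold. Tie1 fell 2.79-fold and 5.58-fold, Tek 3.93-fold and 6.61-fold, and Flt1 2.81-fold and 4.64-fold. Emcn fell 2.98-fold in Sp1+/+ cells and at least 4.04-fold in Sp1-/- cells. Pecam1 (-0.54 and -0.57), Cd34 (-0.51 and -0.38) and Kdr on its brightest probe did not pass. In Sp1+/+ cells the adjusted p of Flt1 was 0.0535 and that of Tie1 0.086, and the count dropped to 3 without HE2 replicate 2 or without progenitor replicate 2.

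The Sp1-/- effect, Sp1-/- minus Sp1+/+ within a population, passed for at most 1 of the 10 genes in each of the first 3 populations. In Flk1+ cells 1 of the 10 genes passed: Cd34 was 2.08-fold higher (log2 1.06, SE 0.33, adjusted p = 0.0832), against 0.775% of all genes called higher. Flt1, at 2.16-fold higher (log2 1.11, SE 0.36), had an unadjusted p of 0.0106. The Cd34 call was lost when either Sp1-/- array or Sp1+/+ replicate 1 was left out, and with its second probe. In HE1 Cd34 was 2.87-fold lower (log2 -1.52, SE 0.33, adjusted p = 0.0162), against 1.13% called lower, and its second probe gave -1.51 (adjusted p = 0.00824). Kdr was 1.96-fold higher in HE1 on its brightest probe (log2 0.97, SE 0.25, adjusted p = 0.0339), just under the 2-fold threshold, and -0.20 on its second. In HE2 none of the 10 passed by limma, which called 1.95% of all genes, and 1 (Cd34) had an unadjusted limma p under 0.05. None passed by Student's t-test on the HE2 arrays alone, which has little power with 2 arrays a group. The largest values there were -0.84 for Esam (95% confidence interval -1.72 to 0.05), -0.78 for Cdh5 (-1.74 to 0.18) and -0.78 for Cd34 (-1.49 to -0.06).

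**Figure D4:**
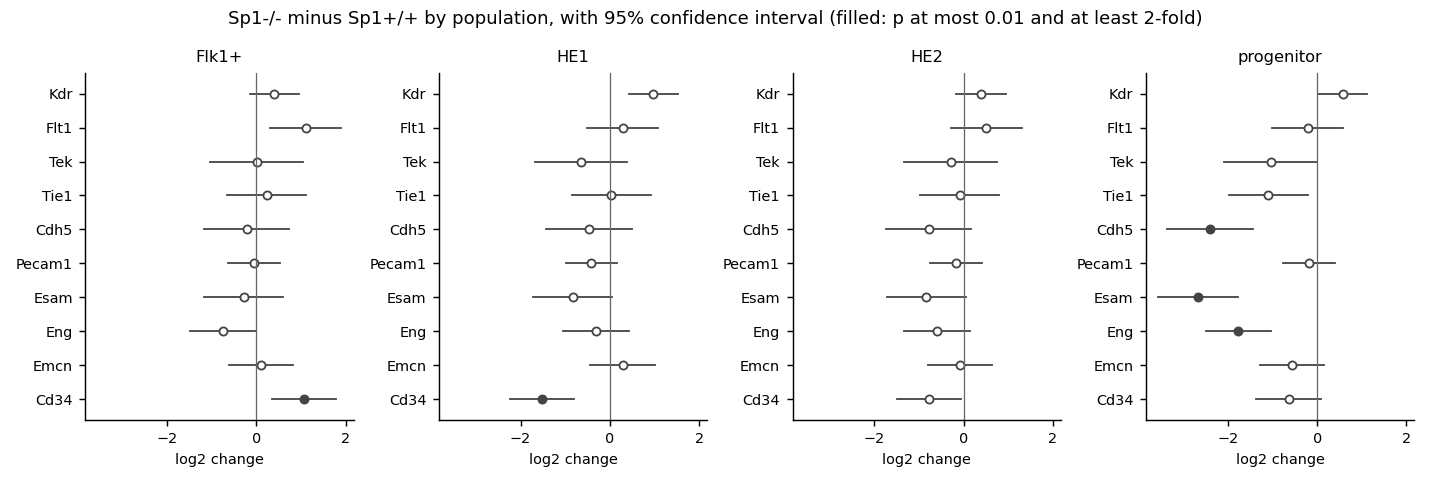
Sp1-/- minus Sp1+/+ log2 change (x axis) of each gene (y axis) in the 4 populations, with its 95% confidence interval. Filled points passed a p of 0.01 and a 2-fold change. Cdh5, Esam and Eng are filled in progenitors, Cd34 in Flk1+ cells and, on the other side of 0, in HE1.

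Progenitors differed most. Esam was 6.34-fold lower in Sp1-/- progenitors (log2 -2.67, SE 0.40, adjusted p = 0.0013), Cdh5 5.26-fold lower (-2.40, SE 0.43, adjusted p = 0.00393) and Eng 3.39-fold lower (-1.76, SE 0.34, adjusted p = 0.00531). These 3 of 10 stood against 2.59% of all genes called lower. Over all settings, each array left out included, the change ran from -3.21 to -2.12 for Esam and from -2.925 to -1.865 for Cdh5. For Eng it ran from -2.26 to -1.26. Student's t-test on the 4 progenitor arrays alone called 0, with little power at 2 arrays a group. The other limma values were -1.09 for Tie1 (SE 0.40, unadjusted p = 0.0208), -1.04 for Tek (SE 0.47, unadjusted p = 0.0494), -0.64 for Cd34, -0.57 for Emcn, -0.22 for Flt1, -0.19 for Pecam1 and 0.57 for Kdr on its brightest probe. The median of the 10 was -0.84, against 0.02 over all genes. For 8 of the 10 both Sp1-/- arrays lay below both Sp1+/+ arrays, as they did for 28.4% of all genes, and Kdr was the 1 gene for which they lay above, as they did for 34.1% of all genes.

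Markers of other cell types moved with the genotype. In Flk1+ cells, where Cd34 was higher in Sp1-/- cells, the log2 values of 7 cardiac and smooth muscle genes summed to 65.1 and 66.8 on the Sp1+/+ arrays against 71.1 and 72.3 on the Sp1-/- arrays. In HE1, where Cd34 was lower, they summed to 79.3 and 82.0 against 84.9 and 89.2. Actc1, a cardiac actin, was higher in Sp1-/- cells in both (log2 3.15 and 3.23), while Myh6 was lower in Sp1-/- Flk1+ cells (mean 7.23 against 8.43). The blood regulators Runx1 (1.54) and Gfi1b (1.09) were higher in HE1. Over all 10 blood genes the median Sp1-/- effect in HE1 was -0.03, with lower means for Klf1 (6.72 against 7.41) and Spn (7.02 against 7.33). The sums of 6 mesenchyme genes in Flk1+ cells were 59.77 and 59.95 against 57.7 and 59.2, and those of 4 epithelium genes 44.0 and 44.9 against 45.4 and 45.5. Of these epithelium genes Cdh1 alone was higher in Sp1-/- Flk1+ cells (mean 9.64 against 7.48). Epcam, Krt8 and Krt18 had lower means there (7.90, 13.08 and 14.85 against 8.25, 13.43 and 15.29). In HE2 the 10 blood genes summed to 105 and 114 against 121 and 123. The other sums in these populations overlapped between genotypes. Of 10 blood genes 2 were called higher in Sp1-/- progenitors, Klf1 (log2 1.90) and Ptprc (1.28), against 1.51% of all genes. Spn and Spi1 had lower means there (10.12 and 9.02 against 10.51 and 9.11). The globins Hbb-y and Hba-x, not called, averaged 17.97 and 18.28 against 14.99 and 15.71, with Sp1+/+ standard deviations of 1.36 and 1.59. The mean log2 intensity of the blood list was 12.6 and 13.5 on the Sp1+/+ progenitor arrays against 14.2 on both Sp1-/- arrays. Progenitors held the widest gaps of the 3 other lists, and 2.59% of all genes were called lower in Sp1-/- progenitors. Of the 7 muscle genes 3 were lower (Cnn1, Acta2 and Tagln, log2 -3.96 to -3.67), with list means of 10.9 to 11.1 in Sp1+/+ and 8.83 to 9.02 in Sp1-/- progenitors. Of 6 mesenchyme genes 4 were lower, Col1a1 most (-4.70), with list means of 9.71 to 10.2 against 7.56 to 7.57. Of 4 epithelium genes 3 were lower, Krt8 most (-4.40), with list means of 10.4 to 10.6 against 8.17 to 8.26. Thus the Sp1-/- progenitors were lower in Cdh5, Esam and Eng and in these non-blood lists alike, and the part of any list in the results was not tested. On the Sp1+/+ progenitor arrays replicate 1, the higher for all 10 endothelial genes, had the lower blood sum (log2 values summing to 125.58, against 134.75 on replicate 2).

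**Figure D5:**
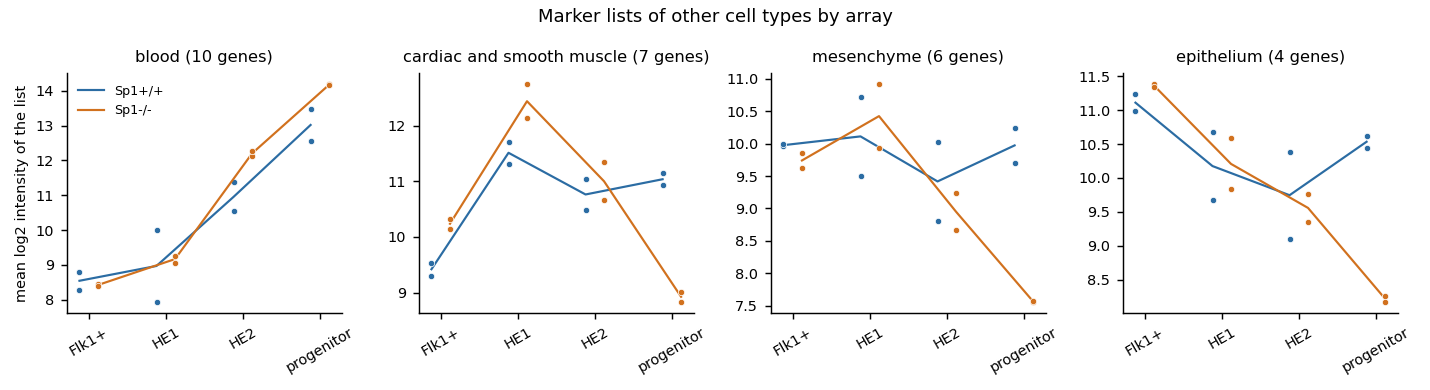
Mean log2 intensity (y axis) of 4 marker lists in the 4 populations (x axis), with a point for each array, Sp1+/+ in blue, Sp1-/- in orange and lines through the means. The muscle, mesenchyme and epithelium lists split by genotype in progenitors, where the Sp1-/- arrays are lower, and blood genes are higher there at 14.2. Muscle genes split the other way in Flk1+ cells and HE1, mesenchyme and epithelium genes split in Flk1+ cells, and blood genes split in HE2. The epithelium split in Flk1+ cells came from Cdh1 alone.

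Whether the Sp1-/- effect itself differed between successive populations was tested as an interaction. Cd34 passed from Flk1+ cells to HE1, where its effect moved from 1.06 to -1.52, a difference of -2.58 (SE 0.46, adjusted p = 0.0299), against 0.891% of all genes called lower. Its second probe gave 0.11 in Flk1+ cells, -1.51 in HE1 and a difference of -1.61 (SE 0.38, adjusted p = 0.0982 over all probes). Esam passed from HE2 to progenitors, with a difference of -1.83 (SE 0.57, unadjusted p = 0.00833, adjusted p = 0.234), against 0.91% called lower. Cdh5 (-1.62, SE 0.61, unadjusted p = 0.0234) and Eng (-1.18, SE 0.47, unadjusted p = 0.0308) missed the limma threshold in that comparison. The Esam call was lost on leaving out any 1 of the 4 Sp1-/- arrays, Sp1+/+ HE2 replicate 1 or Sp1+/+ progenitor replicate 1, while without Sp1+/+ HE2 replicate 2 or Sp1+/+ progenitor replicate 2 all of Esam, Cdh5 and Eng passed. From HE1 to HE2 none passed by limma, which called 0.743% of all genes, and 0 had an unadjusted p under 0.05.

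Around these 10 genes, 60 further genes of the same pathways and junctions were read from 4 lists, and all 60 were measured. From Flk1+ cells to HE1, 32 of the 60 rose in Sp1+/+ cells, with a median log2 change of 1.25, and 31 rose in Sp1-/- cells, where 4.66% and 4.62% of all genes were called higher. In Sp1-/- progenitors 15 of the 60 were lower than in Sp1+/+ progenitors and 2 higher, with a median of -0.44, against 2.59% and 1.51% of all genes.

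The ligands were divided. Angpt2, the ligand that can oppose Angpt1 at Tek, rose from Flk1+ cells to HE1 by 2.35 in Sp1+/+ and 2.00 in Sp1-/- cells and fell again to HE2 (log2 change -1.74 and -1.87). Angpt1, the activating ligand, rose by 1.13 and 2.11 over the first step and by 2.20 from HE2 to progenitors in Sp1+/+ cells. Vegfa, the main ligand of Kdr, fell from HE1 to HE2 (-2.24 and -1.69). Vegfc, which acts mainly on lymphatic endothelium, was the 1 ligand of 8 with a Sp1-/- effect that passed by limma in any population. It was higher in HE1 (1.27, unadjusted p = 9.79e-05). In progenitors, where 2.59% of all genes were called lower, it was lower (-1.04, unadjusted p = 0.000485).

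Of 13 further receptors and regulators, 6 rose into HE1 in Sp1+/+ cells and 7 in Sp1-/- cells (4.66% and 4.62% of all genes), led by Ptprb (VE-PTP, the phosphatase of Tek and Cdh5) at 4.40 and 3.51. Plxnd1, a semaphorin receptor of endothelium, was lower in Sp1-/- cells in HE1 (-1.64), HE2 (-1.61) and progenitors (-2.63). In progenitors Ptprb (-2.51), Nrp1 (-1.68) and Nrp2 (-1.63), the latter both co-receptors of VEGF, were lower too. Of 15 junction genes, Pcdh12 and Cldn5 rose into HE1 in both genotypes (3.95 and 4.04 for Pcdh12, 3.57 and 3.40 for Cldn5). Cldn5, the claudin of endothelial tight junctions, fell from HE2 to progenitors (-2.27 and -3.64). In Sp1-/- progenitors Nectin2 (-2.33) and Cdh2 (-2.13) were lower, and Cgn, an epithelial tight junction protein, was higher (2.69). Of 24 surface genes 18 rose into HE1 in each genotype, against the same 4.66% and 4.62%, with medians of 3.59 and 3.57. Lyve1, a hyaluronan receptor of lymphatic and early embryonic endothelium, was lower in Sp1-/- HE1 (-2.40), HE2 (-2.96) and progenitors (-1.84), while Vwf, made by endothelium and megakaryocytes, was higher in the same 3 populations (1.62, 1.08 and 2.13). Ramp2 (-3.36) and Ecscr (-2.52) were lower in Sp1-/- progenitors.

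Over the 8 group means, the genes with a symbol whose pattern was most like the mean standardized pattern of the 10 were Rapgef3 (Pearson r = 0.998), Adgrl4 (0.997), Wasf2 (0.994), Procr (0.993) and Myct1 (0.992), of 20122 compared. Adgrl4 and Procr are on the list of surface genes. Among the 10 themselves r was lowest for Kdr (0.287) and Cd34 (0.644) and between 0.877 and 0.989 for the other 8. Each of the 10 is part of the mean it was compared with, which raises its r. The 8 points share arrays, slides and the quantile normalization. Rapgef3 averaged 7.17 in Sp1+/+ Flk1+ cells, 11.95 for HE1, 10.77 in HE2 and 8.72 in progenitors, while Wasf2 kept the same order over a range of 13.98 to 14.72.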

How the data were processed

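Total RNA of 16 sorted samples was labelled with Cy3 and hybridized to Agilent 8x60K mouse arrays. The authors deposited scanner files (spot intensity, background and processed signal) and a table of log2 values. Per the labels these were made with Agilent Feature Extraction 10.7.1.1 (10.7.3.1 in the file headers) and limma, by normexp background correction and quantile normalization. The deposited log2 values match normexp with an offset of 50 (largest difference 0.0258), not the 16 stated (1.63). Deposited intensities served only for alternatives and for the background and outlier flags. Depth is unknown for arrays, and 2 per group limit the precision.

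Probes were named by RefSeq accession (20869 of 37932 target names matched, and 12 more by symbol or synonym). Probes at log2 6 on at least 1 array were kept (55595 of 55681), and the brightest stood for a gene. All 16 arrays entered 1 limma 3.58.1 fit in R 4.3.3 with 8 groups and 13 contrasts, checked on simulated data. The members and lists were chosen with earlier results of these data known. Named were all 10 members, Sp1, Kit and Itga2b, at most 4 called genes of each of the 4 pathway lists in a comparison (of those, the largest changes), and the 5 genes of most similar pattern. Probes of a member that differ from its brightest were named too. Marker genes were named after their values were seen and by no fixed rule, so some were small changes and some larger changes of their lists were left unnamed. The alternatives were offset 16, no background correction, processed signals scaled to the 75th percentile, other filters on dim probes, the mean over probes, only the arrays compared, an adjusted p of 0.05, Student's t-test, a replicate block, each array left out and, added after seeing the data, the second probes. The study tested its arrays with limma and gives Student's t-test for wild-type, knock-out and rescue samples.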

Additional observations from a re-analysis of the deposited data

Results flagged for a closer look

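Among the 10 members the interaction test passed, on unadjusted p and fold change, for Cd34 and Esam. The Cd34 effect in HE1 minus that in Flk1+ cells was -2.58 (SE 0.46, adjusted p = 0.0299) on the brightest probe. On the second probe it was -1.61 (SE 0.38, adjusted p = 0.0982). The Esam effect in progenitors minus that in HE2 was -1.83 (SE 0.57, adjusted p = 0.234), so it did not hold after adjustment. The Esam call was also lost with processed signals and with only the arrays compared. Over all settings, each array left out included, the difference ran from -3.09 to -1.61 for Cd34 and from -2.375 to -1.285 for Esam.

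Of the 60 further genes, the same test between HE1 and Flk1+ cells passed for Vegfa (-1.76), Vegfc (1.32), Ocln (-1.68), Lyve1 (-2.35) and Calcrl (-1.06). Between HE2 and HE1 it passed for Cdh2 (-1.31) and Ocln (1.06). Between progenitors and HE2 it passed for Vegfc (-1.31), Nrp2 (-1.36), Cdh2 (-1.85), Ecscr (-2.18) and Lyve1 (1.11). After adjustment over all genes the values at 0.0327 or less were those of Ocln and Lyve1 between HE1 and Flk1+ cells and of Cdh2 between progenitors and HE2.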

How the results depend on the processing

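Of 2040 member changes recomputed, 1936 kept their call, 74 lost it, 29 gained one and 57 uncalled values changed sign. Of 46 called changes, 19 held under every setting. In 1 case a value was called with the opposite sign: the Sp1-/- effect on Kdr in progenitors was -1.13 on the second probe.

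Counts of called members moved as follows. In Flk1+ cells the Sp1-/- count of 1 became 2 when a probe had to be above background on both arrays of any 1 group, 2 with the replicate block, and 0 with the mean over probes, an adjusted p of 0.05, Student's t-test or the second probes. In HE1 it went from 1 to 0 with only the arrays compared and with Student's t-test, and in progenitors from 3 to 0 with Student's t-test. From HE1 to HE2 the count was 1 in Sp1+/+ (instead of 3) and 2 in Sp1-/- cells (instead of 4) with processed signals, and 0 in Sp1+/+ cells with Student's t-test. From HE2 to progenitors in Sp1+/+ cells it fell from 7 to 2 with only the arrays compared and to 0 with Student's t-test, which gave 3 of 9 from Flk1+ cells to HE1. The interaction between progenitors and HE2 went from 1 to 0 with processed signals, only the arrays compared and an adjusted p of 0.05. The cause was not tested.

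Leaving out 1 array, the Sp1-/- counts ran from 0 to 3 for Flk1+, 1 to 2 for HE1, 0 to 0 for HE2 and 3 to 4 for progenitors. In Sp1+/+ cells the 3 successive steps gave 9 to 9, 0 to 7 and 3 to 7, and in Sp1-/- cells 9 to 10, 3 to 4 and 7 to 7. The interactions gave 1 to 2, 0 to 1 and 0 to 3. A group left with 1 array is assumed to vary like the others.

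The labels do not say that a replicate number marks a shared culture or day. The replicate differences of 2 groups correlated from -0.17 to 0.50 (Sp1+/+ HE1 with HE2) over genes, with 11 of 28 pairs over 0.1 and 3 under -0.1, so pairing was not established. The replicate block moved no other count of members by over 1.5 times. Processed signals moved the median of all genes by up to 0.19 (log2).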
